A study of Mus musculus with 23 samples.

Results

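The genes described here are 10 members of the NRF2 antioxidant pathway, measured in whole mouse hearts: Slc7a11, Gclc, Gclm, Txnrd1, Srxn1, Hmox1, Nqo1, Osgin1, Nfe2l2 and Keap1. They were taken as a named list, chosen with earlier results of these data known, and matched by Ensembl identifier and symbol among 55487 gene identifiers. Each of the 10 passed the filter on low counts that left 15732 genes for testing. RNA was measured in 23 libraries of hearts from wild-type female mice of the inbred strain C57BL/6J at 10 weeks of age. Hearts were taken 1 day after isoproterenol (ISO) at 300 mg/kg (n = 3), 7 days after ISO (n = 4), and untreated as the ISO baseline (n = 4). Hearts were likewise taken 1 day after lipopolysaccharide (LPS) at 2.5 mg/kg (n = 4), 7 days after LPS (n = 4), and untreated as the LPS baseline (n = 4). ISO is an agonist of beta-adrenergic receptors, and LPS is a component of bacterial outer membranes that activates Toll-like receptor 4. The baseline hearts received no agent, and no vehicle group was analysed here, so that injection and agent cannot be told apart. The day 1 and day 7 comparisons of an arm share the same baseline libraries.

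NRF2, encoded by Nfe2l2, is a transcription factor whose protein is continually removed in unstressed cells because KEAP1 hands it to a CUL3 ubiquitin ligase. Oxidants and electrophiles modify cysteines of KEAP1, NRF2 then accumulates, pairs with a small MAF protein and binds antioxidant response elements in genes for glutathione synthesis, thioredoxin reduction, NADPH supply, heme breakdown and quinone reduction. Because this control acts mainly on the protein, the transcript levels of Nfe2l2 and Keap1 are not a measure of NRF2 activity. In the heart, which is rich in mitochondria, the pathway is known for limiting oxidant injury.

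Levels are given as CPM, read counts scaled to library size by the trimmed mean of M values (TMM), and changes are fitted log2 differences with their standard error (SE) from edgeR's quasi-likelihood test, called when the p-value adjusted by Benjamini-Hochberg over the 15732 genes was under 0.05. Library totals ran between 20910371 and 30368954 estimated reads. The 4 LPS day 1 libraries fell into pairs: the chi-square per degree of freedom over genes was 12.9 between replicates 1 and 2 and 10.2 between replicates 3 and 4, but 29.5 to 44.4 across the pairs. Replicate 3 of ISO day 7 also stood apart, at 22.6 to 44.6 from the other libraries of its group. Markers of heart muscle were abundant, as the labelled tissue would have it: the summed level of 6 cardiomyocyte markers was 40784 to 42624 TPM, a measure of abundance per transcript length, in the untreated hearts. In bulk RNA, fewer cells of a type and less RNA per cell cannot be told apart.

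Promoter windows of RefSeq, 250 bases before to 50 bases after each gene's start on GRCm38.p6, were given for 8 of the 10 genes, and Gclc and Hmox1 are named only. They are shown because 3 of the genes with the largest differences between agents, Srxn1, Txnrd1 and Gclm, and the weakly moving Osgin1 carry matches that can be read letter by letter. The windows were searched on both strands for the core of the antioxidant response element, TGACNNNGC, held by 12.4% of all 32851 windows, and for the AP-1 site TGANTCA, held by 7.81%. A longer form, TGANTCAGC, which extends the AP-1 site and overlaps it, was added after the windows had been read, and 1.19% of all windows hold it. This form also fits the core in every letter but the base after TGA, where it takes any base. Its letters therefore do not tell an AP-1 site from an antioxidant response element. Capitals mark matches, and all 4 sequences are on the plus strand, 5′ to 3′.

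Srxn1, chr2:152105274-152105573: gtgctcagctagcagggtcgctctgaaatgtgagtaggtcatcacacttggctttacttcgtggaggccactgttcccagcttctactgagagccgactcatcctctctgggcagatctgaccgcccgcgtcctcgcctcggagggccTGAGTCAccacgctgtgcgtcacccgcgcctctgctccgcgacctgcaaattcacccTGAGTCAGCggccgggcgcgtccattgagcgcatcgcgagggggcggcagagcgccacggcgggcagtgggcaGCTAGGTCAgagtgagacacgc

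Gclm, chr3:122245307-122245606: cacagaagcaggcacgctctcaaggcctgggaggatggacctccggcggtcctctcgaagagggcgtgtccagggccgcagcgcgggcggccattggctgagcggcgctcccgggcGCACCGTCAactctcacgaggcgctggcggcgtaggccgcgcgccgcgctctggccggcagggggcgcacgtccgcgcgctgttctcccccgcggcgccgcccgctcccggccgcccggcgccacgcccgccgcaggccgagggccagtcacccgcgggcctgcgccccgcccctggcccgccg

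Txnrd1, the window of its second listed start, chr10:82858956-82859255: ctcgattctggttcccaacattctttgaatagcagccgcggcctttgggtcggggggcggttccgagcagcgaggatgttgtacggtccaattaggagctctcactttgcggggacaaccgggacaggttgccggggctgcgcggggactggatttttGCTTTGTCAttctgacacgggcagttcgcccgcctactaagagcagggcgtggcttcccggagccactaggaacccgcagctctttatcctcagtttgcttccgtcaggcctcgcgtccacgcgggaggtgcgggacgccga

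Osgin1, chr8:119436897-119437196: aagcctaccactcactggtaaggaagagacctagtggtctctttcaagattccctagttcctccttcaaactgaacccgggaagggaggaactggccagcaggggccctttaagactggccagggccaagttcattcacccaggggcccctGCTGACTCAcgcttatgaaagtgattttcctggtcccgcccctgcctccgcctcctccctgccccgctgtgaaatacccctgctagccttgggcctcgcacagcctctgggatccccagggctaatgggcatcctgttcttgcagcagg

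In the Srxn1 window, counted so that the start is base 1, AP-1 sites began at -102 and -45, the site at -45 reading on as TGAGTCAGC, and a core match on the minus strand began at 29. Gclm held a core match at -134, Txnrd1 held a core match at -92 in 1 of its 3 windows, and Osgin1 held an AP-1 site at -97 with the extended form on the minus strand. Nfe2l2 held a core match at -240. The windows of Slc7a11, Nqo1 and Keap1 held none of these letters, which says nothing of sequence outside them. A match is a description of letters and not of binding.

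On day 1 after ISO, 8 of the 10 genes were higher than at the ISO baseline and none was lower. Of all genes tested, 65.7% were called in this comparison, 32.9% as higher and 32.8% as lower. The median change of the 10 genes was 2.06 on the log2 scale, against -0.01 over all genes. On day 1 after LPS, 9 of the 10 were higher than at the LPS baseline and none was lower, where 66.2% of all genes were called, 33.2% as higher and 33.0% as lower. Their median log2 change was 1.04, against 0 over all genes. Under this scaling, called genes of the whole table were thus split nearly evenly between higher and lower, and those among the 10 were all higher. With library totals the table had 4800 higher and 5188 lower for ISO, and 4855 and 5278 for LPS. On the log2(TPM + 0.1) scale it had 4817 and 4149 for ISO, and 4462 and 4719 for LPS. The 10 genes were chosen with earlier results of these data known, so their shared direction is no independent result.

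**Figure D1:**
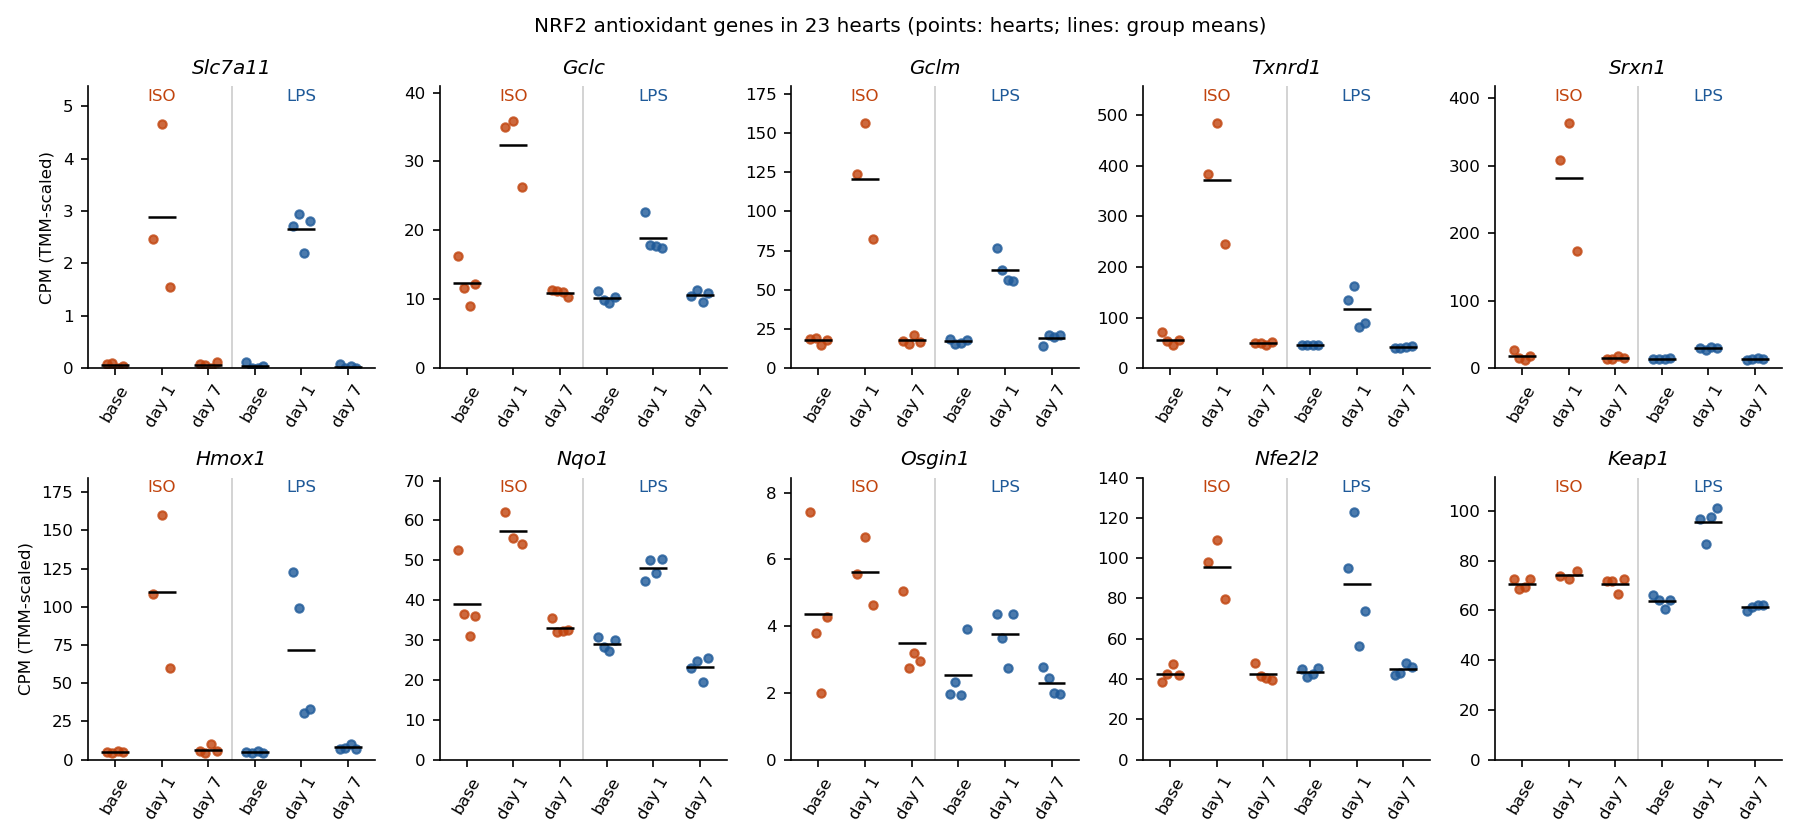
Level of each gene in every heart, in CPM on a linear axis from 0, by arm and time (points, hearts; horizontal lines, group means). Most members are high on day 1 alone, Srxn1 at 174 to 363 CPM after ISO but 27.1 to 31.5 CPM after LPS, and Keap1 is high on day 1 after LPS, at 86.5 to 101 CPM.

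The cystine importer and both subunits of glutamate-cysteine ligase, which together supply and catalyse the rate-limiting step of glutathione synthesis, were higher on day 1 after either agent. Slc7a11 (chr3:49892526-50443614 on GRCm38, as for the positions that follow, minus strand), the light chain of the cystine-glutamate exchanger, was close to undetected in untreated hearts. It had 57, 137 and 37 reads in the ISO day 1 libraries, against 2, 2, 0 and 1 reads at the ISO baseline. It had 73, 59, 53 and 82 reads in the LPS day 1 libraries, against 3, 0, 0 and 1 reads at the LPS baseline. Every day 1 heart lay far above every untreated heart. The ratio of summed reads per library total was 60.2 for ISO (95% exact interval 25.4 to 187) and 68.3 for LPS (26.4 to 253), where the width comes from the few baseline reads and covers counting error only. The fitted log2 changes were 5.74 (SE 0.58, adjusted p = 1.1e-08) and 5.95 (SE 0.58, adjusted p = 5.9e-09), and they depend on how such low counts are treated.

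Gclc (chr9:77754535-77794485, plus strand), the catalytic subunit, had 35.1, 35.9 and 26.2 CPM in ISO day 1 hearts, against 16.3, 11.7, 8.96 and 12.2 CPM at the ISO baseline. LPS day 1 hearts had 22.7, 17.9, 17.7 and 17.5 CPM, against 11.2, 9.94, 9.48 and 10.3 CPM at the LPS baseline. The day 1 hearts did not overlap with their baselines, and the log2 changes were 1.40 for ISO (SE 0.14, adjusted p = 7.9e-09) and 0.89 for LPS (SE 0.13, adjusted p = 3.3e-06).

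Gclm (chr3:122245557-122270732, plus strand), the modifier subunit that raises the enzyme's activity, was higher after each agent too. It had 124, 157 and 82.5 CPM in ISO day 1 hearts, against 18.9, 19.4, 14.9 and 18.0 CPM at the ISO baseline. It had 76.7, 62.6, 56.2 and 55.7 CPM in LPS day 1 hearts, against 18.6, 15.1, 16.3 and 18.2 CPM at the LPS baseline. The log2 changes were 2.77 for ISO (SE 0.17, adjusted p = 3.3e-12) and 1.88 for LPS (SE 0.16, adjusted p = 5.9e-10), so that both subunits were higher but in unequal measure; the difference between the subunits was not tested.

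The enzymes that restore thioredoxin and peroxiredoxins showed the widest gap between the agents. Txnrd1 (chr10:82833951-82897712, plus strand), the cytosolic thioredoxin reductase, had 385, 485 and 246 CPM in ISO day 1 hearts, against 71.9, 52.9, 44.8 and 54.9 CPM at the ISO baseline. After LPS it had 134, 162, 81.2 and 89.2 CPM in day 1 hearts, against 46.3, 45.1, 45.5 and 46.4 CPM at the LPS baseline. All ISO day 1 hearts were above all LPS day 1 hearts, and within LPS day 1 replicates 1 and 2 were above replicates 3 and 4. The log2 changes were 2.73 for ISO (SE 0.20, adjusted p = 6.9e-11) and 1.35 for LPS (SE 0.19, adjusted p = 1.2e-06). Without LPS replicates 1 and 2 the LPS change was 0.90 (adjusted p = 1.1e-04), and without replicates 3 and 4 it was 1.69.

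Srxn1 (chr2:152105516-152111376, plus strand), sulfiredoxin, reduces peroxiredoxins that have been over-oxidised. It had 309, 363 and 174 CPM in ISO day 1 hearts, against 26.7, 15.3, 12.4 and 18.4 CPM at the ISO baseline. The LPS day 1 hearts had 29.4, 27.1, 31.5 and 30.5 CPM, against 13.1, 13.6, 14.1 and 15.7 CPM at the LPS baseline. Every ISO day 1 heart was thus far above every LPS day 1 heart, while the LPS hearts lay close together. Srxn1 had log2 changes of 3.95 for ISO (SE 0.21, adjusted p = 3.0e-13) and 1.07 for LPS (SE 0.19, adjusted p = 4.1e-05).

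Of the enzymes for heme and quinones, Hmox1 moved far and Nqo1 little. Hmox1 (chr8:75093621-75100589, plus strand), heme oxygenase 1, had 109, 160.0 and 59.9 CPM in ISO day 1 hearts, against 4.89, 4.61, 5.37 and 5.05 CPM at the ISO baseline. The LPS day 1 hearts had 123, 99.5, 30.4 and 33.2 CPM, against 5.03, 4.43, 5.33 and 4.55 CPM at the LPS baseline. The LPS day 1 hearts split, replicates 1 and 2 lying far above replicates 3 and 4. Fitted log2 changes were 4.46 for ISO (SE 0.42, adjusted p = 3.4e-09) and 3.88 for LPS (SE 0.40, adjusted p = 1.4e-08), and the LPS value was 2.72 without replicates 1 and 2 and 4.52 without replicates 3 and 4.

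Nqo1 (chr8:107388225-107403206, minus strand), a quinone reductase often used to report NRF2 activity, had 62.2, 55.5 and 54.02 CPM in ISO day 1 hearts, against 52.5, 36.4, 31.1 and 35.9 CPM at the ISO baseline. In LPS day 1 hearts it had 44.7, 50.1, 46.9 and 50.4 CPM, against 30.7, 28.2, 27.2 and 30.1 CPM at the LPS baseline. The groups did not overlap in either arm, although replicate 1 of the ISO baseline came close to the ISO day 1 hearts. Its log2 change was 0.55 for ISO (SE 0.12, adjusted p = 2.7e-04) and 0.72 for LPS (SE 0.11, adjusted p = 5.3e-06).

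Osgin1 (chr8:119434124-119446256, plus strand), an oxidative stress-induced regulator of growth, did not pass the test on day 1 after either agent. It had 5.56, 6.67 and 4.62 CPM in ISO day 1 hearts, against 7.41, 3.78, 2.0 and 4.29 CPM at the ISO baseline. In LPS day 1 hearts it had 4.35, 3.64, 2.73 and 4.38 CPM, against 1.96, 2.33, 1.93 and 3.92 CPM at the LPS baseline. The groups overlapped in each arm, in each through 1 baseline heart. Its log2 change was 0.36 for ISO (SE 0.30, adjusted p = 0.298) and 0.58 for LPS (SE 0.30, adjusted p = 0.0931). Without replicate 1 of the ISO baseline the ISO change was 0.75 (adjusted p = 0.0253). Without replicate 4 of the LPS baseline the LPS change was 0.87 (adjusted p = 0.0202). Leaving out either heart thus turned the call of its own arm. The ISO change was also called with both baselines pooled (0.71, adjusted p = 0.0383).

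The transcripts of the regulators themselves also moved. Nfe2l2 (chr2:75675513-75704641, minus strand) had 98.1, 109 and 79.8 CPM in ISO day 1 hearts, against 38.7, 42.6, 47.5 and 42.0 CPM at the ISO baseline. In LPS day 1 hearts it had 95.2, 123, 56.6 and 74.0 CPM, against 45.1, 41.0, 42.5 and 45.4 CPM at the LPS baseline. No day 1 heart overlapped with its baseline. Changes on the log2 scale were 1.17 for ISO (SE 0.16, adjusted p = 1.1e-06) and 1.00 for LPS (SE 0.15, adjusted p = 3.4e-06), the LPS value being 0.59 without replicates 1 and 2 and 1.33 without replicates 3 and 4. The effective length that the files assign to Nfe2l2 was 1727 to 1870 bases in LPS day 1 hearts against 2205 to 2226 bases at the LPS baseline, and 2040 to 2128 bases in ISO day 1 hearts against 2201 to 2225 bases at the ISO baseline, so that its TPM and CPM do not move in proportion. With effective lengths as offsets the fitted changes were 1.23 for ISO and 1.30 for LPS.

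Keap1 (chr9:21229730-21239361, minus strand), the sensor that marks NRF2 for removal, passed the test on LPS day 1 and not on ISO day 1. It had 73.8, 72.8 and 75.9 CPM in ISO day 1 hearts, against 72.8, 68.6, 69.3 and 72.5 CPM at the ISO baseline. The LPS day 1 hearts had 96.6, 86.5, 97.5 and 101 CPM, against 66.2, 64.3, 60.7 and 64.1 CPM at the LPS baseline. The ISO groups overlapped, with a log2 change of 0.07 (SE 0.05, adjusted p = 0.275), and the LPS groups were well apart, with 0.58 (SE 0.05, adjusted p = 5.8e-10).

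**Figure D2:**
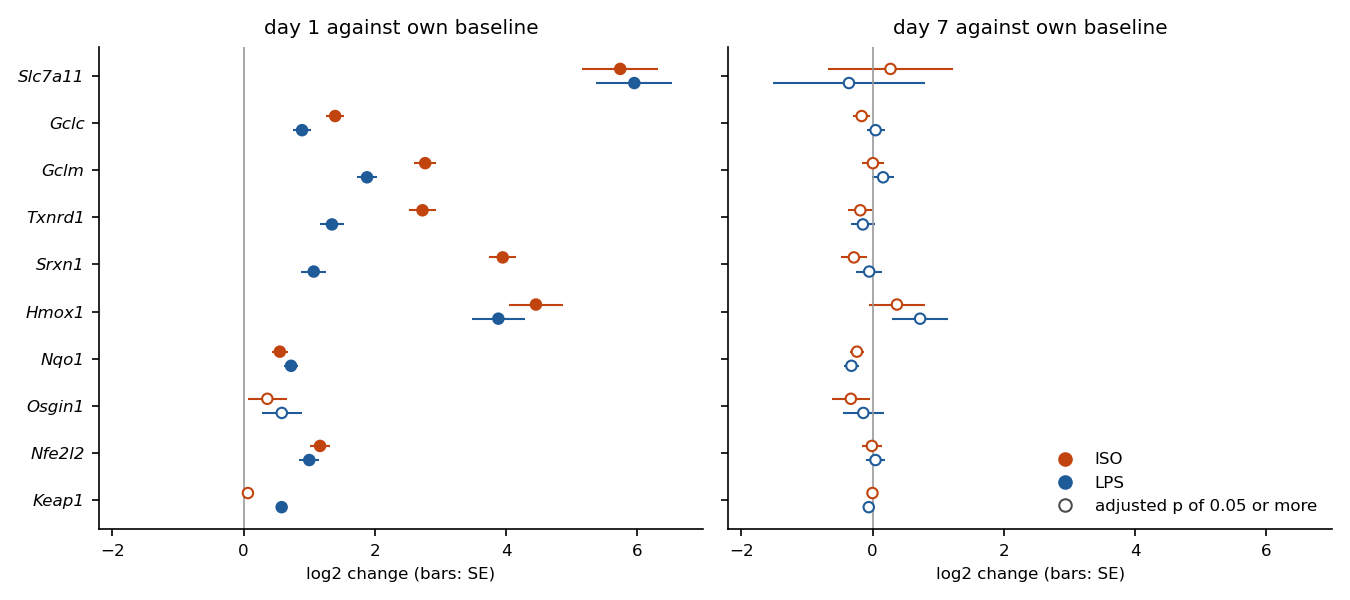
Fitted log2 change of each gene on day 1 (left) and day 7 (right) against the baseline of its own arm, with ISO above LPS in each row (bars, SE; filled points, adjusted p under 0.05). The day 1 points reach 5.74 for ISO and 5.95 for LPS, both for Slc7a11, and every day 7 point is open.

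The difference between the agents was tested directly, as the ISO change minus the LPS change on day 1. Each agent was given at a single dose, 300 mg/kg for ISO and 2.5 mg/kg for LPS, so agent, dose and time course cannot be told apart. Srxn1, Txnrd1, Gclm and Gclc changed more after ISO, Keap1 changed more after LPS, and the other 5 genes did not pass. Among all genes 37.6% passed this test, 19.5% with the larger value after ISO and 18.2% with the larger value after LPS, so 5 of 10 is not far from the table as a whole. The size of the Srxn1 difference was 2.88 (95% interval 2.31 to 3.45, adjusted p = 2.7e-08), which is 7.36-fold. Txnrd1 differed by 1.38 (0.82 to 1.94, adjusted p = 2.9e-04) and Gclm by 0.89 (0.41 to 1.36, adjusted p = 0.00364). Gclc differed by 0.50 (0.11 to 0.90, adjusted p = 0.0415), a call that was lost in 16 of 39 alternatives, among them leaving out replicate 2, 3 or 4 of the ISO baseline, 1 or 2 of ISO day 1, 1, 2 or 4 of the LPS baseline, or 2, 3 or 4 of LPS day 1, where the value was 0.38 to 0.52. Keap1 differed by -0.51 (-0.66 to -0.36, adjusted p = 6.6e-06).

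For Hmox1 the difference was 0.57 (95% interval -0.60 to 1.75, adjusted p = 0.459), and it turned on which LPS day 1 pair was kept: it was 1.74 (adjusted p = 0.00155) without replicates 1 and 2 and -0.07 (adjusted p = 0.914) without replicates 3 and 4. For Nfe2l2 it was 0.16 (-0.29 to 0.62, adjusted p = 0.591), and 0.58 (adjusted p = 0.00438) or -0.16 (adjusted p = 0.423) under the same omissions. The intervals were -0.51 to 0.17 for Nqo1, -1.10 to 0.66 for Osgin1 and -2.40 to 1.97 for Slc7a11, the widest of the 10. The differences of Srxn1, at 2.81 and 2.94, and of Txnrd1, at 1.83 and 1.03, and Gclm, at 1.05 and 0.73, and Keap1, at -0.57 and -0.46, passed under both omissions.

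**Figure D3:**
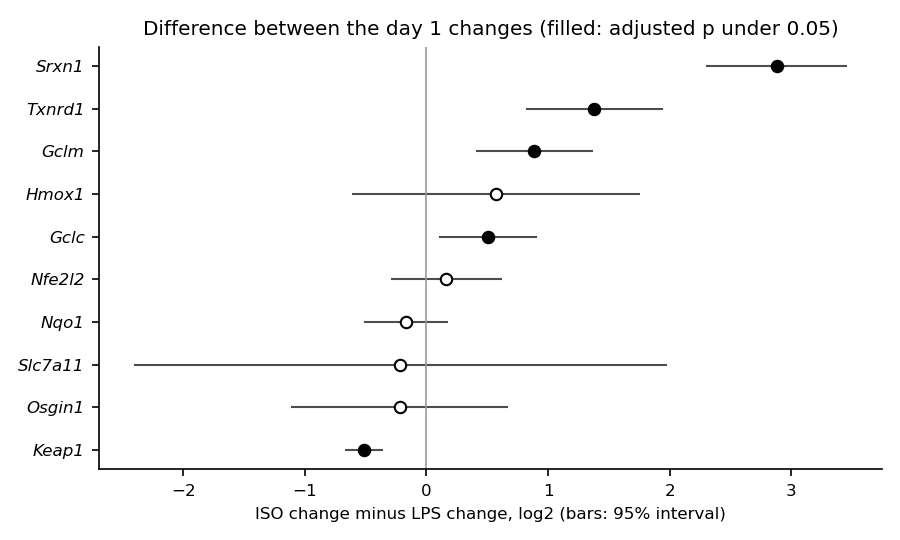
ISO change minus LPS change on day 1 for each gene, on the log2 scale, ordered by size (points, estimates; bars, 95% intervals; filled, adjusted p under 0.05). Srxn1 stands highest at 2.88 and Keap1 lowest at -0.51.

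The hearts of a day 1 group did not respond to the same extent. In ISO day 1, replicate 2 was highest and replicate 3 lowest for Slc7a11, Gclc, Gclm, Txnrd1, Srxn1, Hmox1, Osgin1 and Nfe2l2. For Srxn1 the log2 ratio to the mean ISO baseline was 4.08, 4.32 and 3.26 in replicates 1 to 3, and for Hmox1 it was 4.45, 5.01 and 3.59. In LPS day 1 the Hmox1 ratios were 4.67, 4.36, 2.65 and 2.78, while those of Srxn1 were 1.06, 0.94, 1.16 and 1.11. The spread among LPS hearts thus differed by gene. For Hmox1, Txnrd1, Nfe2l2, Gclm and, by a small margin, Gclc, replicates 1 and 2 were above replicates 3 and 4. For Srxn1 and Keap1 they were below by a small margin, and for Nqo1, Osgin1 and Slc7a11 the pairs overlapped.

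**Figure D4:**
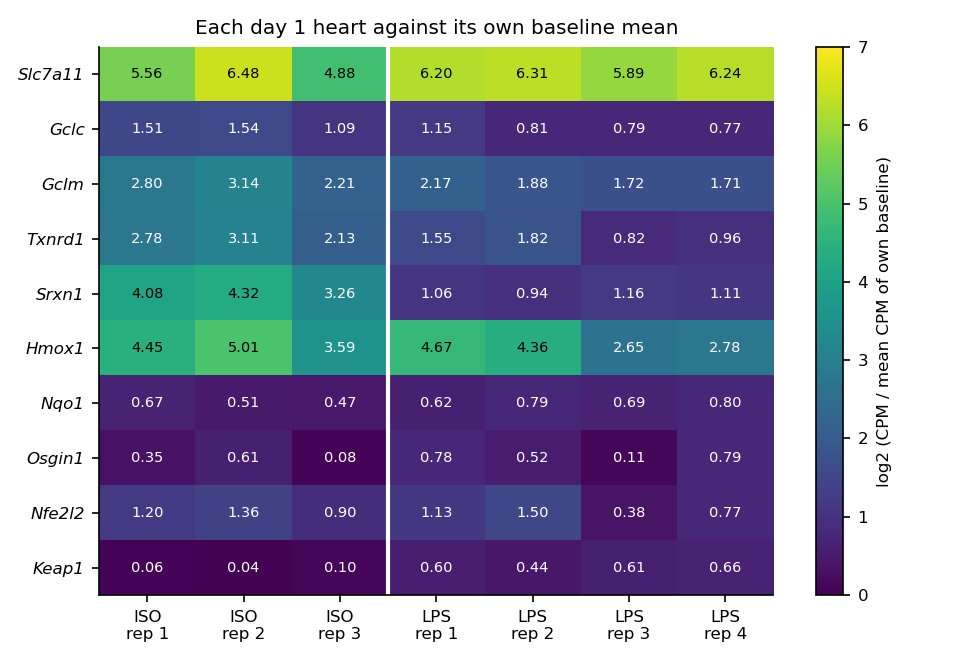
Each day 1 heart against the mean of its own baseline (color and printed value, log2 ratio of CPM; ISO hearts left, LPS hearts right; rep, replicate). ISO replicate 2 holds the highest ISO ratio of Hmox1, 5.01, and LPS replicates 1 and 2 hold the highest LPS ratios of Hmox1, 4.67 and 4.36.

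On day 7 no member was called against its baseline with edgeR in either arm. For ISO day 7 the median change of the 10 genes was -0.09, their range was -0.33 to 0.37, the smallest adjusted p was 0.901, and 1 member, Nqo1, had an unadjusted p under 0.05. Over all genes 0.00636% were called in this comparison with edgeR, with 863 at an unadjusted p under 0.05. For LPS day 7 the median was -0.06, the range -0.36 to 0.72 and the smallest adjusted p 0.0792, again with Nqo1 alone under an unadjusted 0.05, in a comparison where 9.10% of all genes were called, 938 higher and 493 lower, and 3607 had an unadjusted p under 0.05. Scaling by library totals called 2421 higher and 90 lower, with the median of all genes moved by 0.16, and small changes on LPS day 7 are read relative to that shift. DESeq2 called no member for ISO day 7 and 1, Nqo1, for LPS day 7.

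On LPS day 7 the hearts of Nqo1, Hmox1 and Txnrd1 did not overlap in CPM with the LPS baseline. These 3 genes were called when the 2 groups were fitted alone, where 2600 of all 14484 genes tested were called. The share of all genes without overlap was not computed, so neither count sets the members apart from the table as a whole. Nqo1 had 23.1, 24.8, 19.5 and 25.6 CPM in LPS day 7 hearts, against 30.7, 28.2, 27.2 and 30.1 CPM at the LPS baseline. The log2 change of -0.32 (SE 0.11) had an adjusted p of 0.0792, and it passed when replicate 1 of the ISO baseline was left out (-0.32, adjusted p = 0.0137). Hmox1 had 7.11, 7.55, 9.96 and 7.26 CPM in LPS day 7 hearts, against 5.03, 4.43, 5.33 and 4.55 CPM at the LPS baseline. The log2 change was 0.72 (SE 0.42, adjusted p = 0.322), or 0.73 (adjusted p = 0.00184) when the 2 groups were fitted alone. Txnrd1 had 39.8, 40.6, 41.2 and 43.8 CPM in LPS day 7 hearts, against 46.3, 45.1, 45.5 and 46.4 CPM at the LPS baseline. Its log2 change was -0.15 (SE 0.19, adjusted p = 0.69), or -0.15 (adjusted p = 0.0375) when the 2 groups were fitted alone. In TPM the Txnrd1 hearts overlapped, at 18.6 to 20.5 on LPS day 7 against 18.4 to 19.8 at the LPS baseline. Those of Nqo1 overlapped too, at 18.5 to 22.9 TPM against 21.9 to 24.5 TPM, and those of Hmox1 did not. Over the alternatives the change ran from -0.30 to 0.03 for Txnrd1 and from -0.55 to -0.11 for Nqo1, so both depend on the processing. The Nqo1 value of -0.55 came from pooled baselines, which change the reference hearts and not the scaling. Summed TPM of 6 general macrophage markers was 170 to 217 in LPS day 7 hearts, against 79.6 to 105 at the LPS baseline, with all 6 markers called higher and none at 0; their part in the Hmox1 values was not tested.

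On ISO day 7 the heart that stood apart was also the high one for Hmox1, with 5.62, 4.38, 10.2 and 5.52 CPM in ISO day 7 hearts, against 4.89, 4.61, 5.37 and 5.05 CPM at the ISO baseline. That heart, replicate 3, had summed general macrophage markers of 170 TPM and fibroblast markers of 579 TPM, the highest of its group. The groups overlapped and the log2 change was 0.37 (SE 0.43, adjusted p = 0.983). The ISO change minus the LPS change on day 7 passed for none of the 10 genes with edgeR, none at an unadjusted p under 0.05, and for 0.458% of all genes.

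From day 1 to day 7 nearly all members fell. In ISO hearts 9 of 10 genes were lower on day 7 than on day 1, with Keap1 at -0.07 (adjusted p = 0.261), where 65.1% of all genes were called and 31.9% as lower. In LPS hearts all 10 were lower, where 66.4% of all genes were called, 5336 higher and 5108 (32.5%) lower, or 6776 and 3584 when scaled by library totals. Srxn1 changed by -4.23 (SE 0.21) after ISO and -1.12 (SE 0.19) after LPS, and Hmox1 by -4.08 (SE 0.40) and -3.16 (SE 0.38). Osgin1 changed by -0.69 (SE 0.30, adjusted p = 0.0488) and -0.72 (SE 0.30, adjusted p = 0.0405) with overlapping hearts in each arm, calls that were lost in 22 and 12 of 38 alternatives. These comparisons share their day 1 libraries with those against baseline, and their values add no separate evidence for the day 1 levels.

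Within a group, levels of different genes can be compared only per length, in TPM. At the ISO baseline Nqo1 stood highest at 29.7 ± 5.95 TPM (SD, n = 4), followed by Keap1, Txnrd1 and Nfe2l2 at 24.1, 22.5 and 21.1 TPM, and neighbours in that order overlapped between hearts. Slc7a11 stood lowest at the ISO baseline, at 0.013 TPM. On ISO day 1 the order began with Txnrd1 at 151 ± 56.4 TPM, Srxn1 at 137 ± 50.9 TPM and Gclm at 132 ± 44.0 TPM (SD, n = 3), which overlapped, while Nqo1 was sixth at 45.4 ± 4.13 TPM. On LPS day 1 it began with Gclm at 65.7 ± 12.7 TPM, Nfe2l2 at 53.1 ± 12.6 TPM and Hmox1 at 52.5 ± 32.6 TPM (SD, n = 4), which overlapped, and Srxn1 was seventh at 12.4 ± 1.91 TPM. Slc7a11 was the lowest of the 10 on day 1 as well, at 0.433 ± 0.266 TPM after ISO and 0.383 ± 0.0396 TPM after LPS. Its effective length in the files ranged from 2378 to 7898 bases between libraries, which moves its TPM at a given count.

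Across the 6 groups, ISO day 1 had the highest mean CPM for each member but Keap1, whose highest mean was on LPS day 1. For Gclc, Gclm, Txnrd1, Srxn1 and Nqo1 the ISO day 1 hearts did not overlap with the LPS day 1 hearts that ranked next, and for Slc7a11, Hmox1 and Nfe2l2 they did. The share of all genes without such overlap was not computed, and these are levels, not changes from baseline. For Nqo1 the untreated ISO hearts also lay above the untreated LPS hearts. Its ISO change minus its LPS change on day 1 was -0.17 (adjusted p = 0.438). For Gclc, Gclm, Srxn1, Hmox1, Slc7a11 and Nfe2l2 the 4 untreated and day 7 groups overlapped with their neighbours throughout, and for Osgin1 all 6 groups did. For Txnrd1, Nqo1 and Keap1 the ISO day 7 hearts lay above the LPS baseline hearts that ranked next, without overlap. Between the untreated arms no member was called with edgeR and 1, Nqo1, with DESeq2, in a comparison with 1.21% of all genes called and 1701 genes at an unadjusted p under 0.05. Nqo1 was nearest, at 39.0 ± 9.31 CPM at the ISO baseline and 29.05 ± 1.60 CPM at the LPS baseline (SD, n = 4 each), a log2 difference of 0.42 (SE 0.11, adjusted p = 0.0651) with no overlap between hearts. It passed without replicate 3 of the ISO baseline (0.52, adjusted p = 0.0191). Keap1, at 0.15 (SE 0.05, adjusted p = 0.179), did not overlap either, and Osgin1, at 0.79 (SE 0.30, adjusted p = 0.275), did. With Nqo1 these were the 3 members at an unadjusted p under 0.05. The median difference of the 10 genes was 0.28, against 0.003 over all genes. The differences between the agents are taken from these unequal baselines.

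Other genes of the pathway, in 8 lists, were tested in the same fit, and most lists moved in mixed directions on day 1. Over the 8 lists, 61 of 83 tested genes were called on ISO day 1 and 55 of 83 on LPS day 1, beside the 65.7% and 66.2% of all genes called, and the counts of each list are read against those shares. Of 12 NRF2 partners and regulators, 6 were higher and 2 lower on ISO day 1, and 6 were higher and 4 lower on LPS day 1. The median log2 change of the list was 0.21 for ISO and 0.22 for LPS. Maff, a small MAF protein that can pair with NRF2, was at 47.7 ± 8.01 CPM on ISO day 1 (SD, n = 3) and 4.43 ± 0.361 CPM at the ISO baseline (SD, n = 4), a log2 change of 3.42 (SE 0.16), and changed by 2.33 (SE 0.15) on LPS day 1. Mafg changed by 1.34 and 0.46, Mafk, another small MAF protein, by 1.71 and 1.68, and Sqstm1, an autophagy receptor that binds KEAP1, by 1.40 and 0.79. The day 1 changes of Maff and Mafg were larger after ISO, by 1.09 (adjusted p = 5.1e-04) and 0.88 (adjusted p = 2.6e-04).

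Of 18 tested genes of 20 listed for glutathione synthesis, recycling and use, 7 were higher and 5 lower on ISO day 1. On LPS day 1, 11 were higher and 1 lower. The median log2 change of the list was 0.11 for ISO and 0.60 for LPS. The genes described next include none of the 5 that were lower after ISO. Slc3a2, the heavy chain that carries SLC7A11 to the membrane, changed by 1.96 (SE 0.09) after ISO and 1.00 (SE 0.08) after LPS, a difference of 0.96 (adjusted p = 1.8e-06). Gsr, glutathione reductase, changed by 1.44 and 0.74, a difference of 0.70 (adjusted p = 0.00105). Mgst1, a microsomal glutathione transferase, passed the test after LPS and not after ISO. It stood at 19.1 ± 2.10 CPM on ISO day 1 (SD, n = 3) and 18.5 ± 3.99 CPM at the ISO baseline (SD, n = 4). It stood at 90.3 ± 4.29 CPM on LPS day 1 and 12.7 ± 1.64 CPM at the LPS baseline (SD, n = 4 each), so the ISO change was below the LPS change by 2.79 on the log2 scale (adjusted p = 1.3e-09).

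Of 13 thioredoxin and peroxiredoxin genes, 4 were higher and 5 lower on ISO day 1, and 4 were higher and 1 lower on LPS day 1. Txn1, the thioredoxin that TXNRD1 reduces, changed by 0.90 after ISO and 0.98 after LPS. Prdx6, a peroxiredoxin, changed by 0.89 and 0.31, and Sesn1, a sestrin, by -1.83 and -0.06, the last not called. Txnip, an inhibitor of thioredoxin, changed by 1.34 after ISO and 2.16 after LPS, with a difference of -0.82 (adjusted p = 0.0137). The list thus held genes that oppose each other in function, and its median log2 change was -0.01 for ISO and -0.02 for LPS.

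Of 8 genes of NADPH supply, 6 were higher and 1 lower on ISO day 1, and 4 were higher and 1 lower on LPS day 1. Taldo1 and Pgd, enzymes of the pentose phosphate pathway, changed by 1.30 and 1.37 after ISO, and by -0.11, not called, and 0.51 after LPS. The differences were 1.41 (adjusted p = 2.4e-08) for Taldo1 and 0.86 (adjusted p = 1.8e-04) for Pgd. G6pdx, which opens that pathway, changed by 1.03 after ISO and 1.32 after LPS. Of 8 genes of heme breakdown and iron storage, 2 were higher and 5 lower on ISO day 1, and 4 were higher and 1 lower on LPS day 1. Ftl1, ferritin light chain, changed by 1.37 and 0.32, with a difference of 1.04 (adjusted p = 3.3e-05), while Fth1, ferritin heavy chain, changed by 0.11, not called, after ISO and 0.66 after LPS, with a difference of -0.55 (adjusted p = 2.9e-04). Ftl1, Fth1 and Txn1 have processed pseudogenes that can share reads with them, and their values are uncertain.

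Of 11 quinone, aldehyde and drug-metabolizing enzymes, 3 were higher and 4 lower on ISO day 1, and 5 were higher and 3 lower on LPS day 1. Ugdh, UDP-glucose dehydrogenase, changed by 1.99 after ISO and 1.13 after LPS, a difference of 0.86 (adjusted p = 9.9e-04). Aldh1a1, an aldehyde dehydrogenase, changed by 0.30, not called, after ISO and 1.67 after LPS, a difference of -1.37 (adjusted p = 5.5e-06). Nqo2, a paralog of Nqo1, fell by 1.54 and 1.30 on the log2 scale, and Cbr1, a carbonyl reductase, fell by 1.38 and 0.85. Of 5 genes of superoxide and peroxide removal, 2 were higher and 2 lower on ISO day 1 and 2 were higher and 1 lower on LPS day 1, among them Cat, catalase, at 0.59 after ISO and 0.07, not called, after LPS. Sod3, the extracellular superoxide dismutase, stood at 0.13, not called, after ISO and 0.57 after LPS.

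Slc7a11 is also a target of ATF4, a transcription factor of the amino acid response. Of 8 genes listed for that branch, Atf4 among them, 7 were higher on day 1 after each agent, with none lower. Of all genes, 32.9% were called higher on ISO day 1 and 33.2% on LPS day 1. Any part of ATF4 in the Slc7a11 levels was not tested. The median log2 change was 1.86 for ISO and 1.35 for LPS. Psat1, an enzyme of serine synthesis, stood at 12.9 ± 2.63 CPM on ISO day 1 (SD, n = 3) and 1.83 ± 0.218 CPM at the ISO baseline (SD, n = 4), a log2 change of 2.82. Atf4 itself changed by 1.70 after ISO and 1.12 after LPS. On LPS day 7 Psat1 was still higher by 0.86 (SE 0.20, adjusted p = 0.0107) and Ddit3, a stress-induced transcription factor, by 0.45 (adjusted p = 0.0303). Slc7a11 then had 2, 0, 1 and 0 reads, against 3, 0, 0 and 1 reads at the LPS baseline. Its ratio of summed reads per library total was 0.84 (95% exact interval 0.12 to 4.95), too wide to tell whether it moved as Psat1 did.

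On LPS day 7, 9 of the 83 tested genes of these lists were called, Psat1 and Ddit3 among them, a share close to the 9.10% of all genes called. Ggt5, a gamma-glutamyl transferase family enzyme, was higher by 0.67, Gpx1, a glutathione peroxidase, by 0.36, G6pdx by 0.40, Blvrb, a biliverdin reductase, by 0.39 and Ftl1 by 0.37. Prdx3, the mitochondrial peroxiredoxin, was lower, at -0.22 (adjusted p = 0.0293), and so was Nfe2l1, at -0.19 (adjusted p = 0.0312). Both of these calls depend on the scaling: with library totals the values were -0.06 and -0.03, and on the log2(TPM + 0.1) scale they were -0.01 and 0.00058, none of them called. On ISO day 7 none of the 83 was called with edgeR or with DESeq2, and 9 had an unadjusted p under 0.05.

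**Figure D5:**
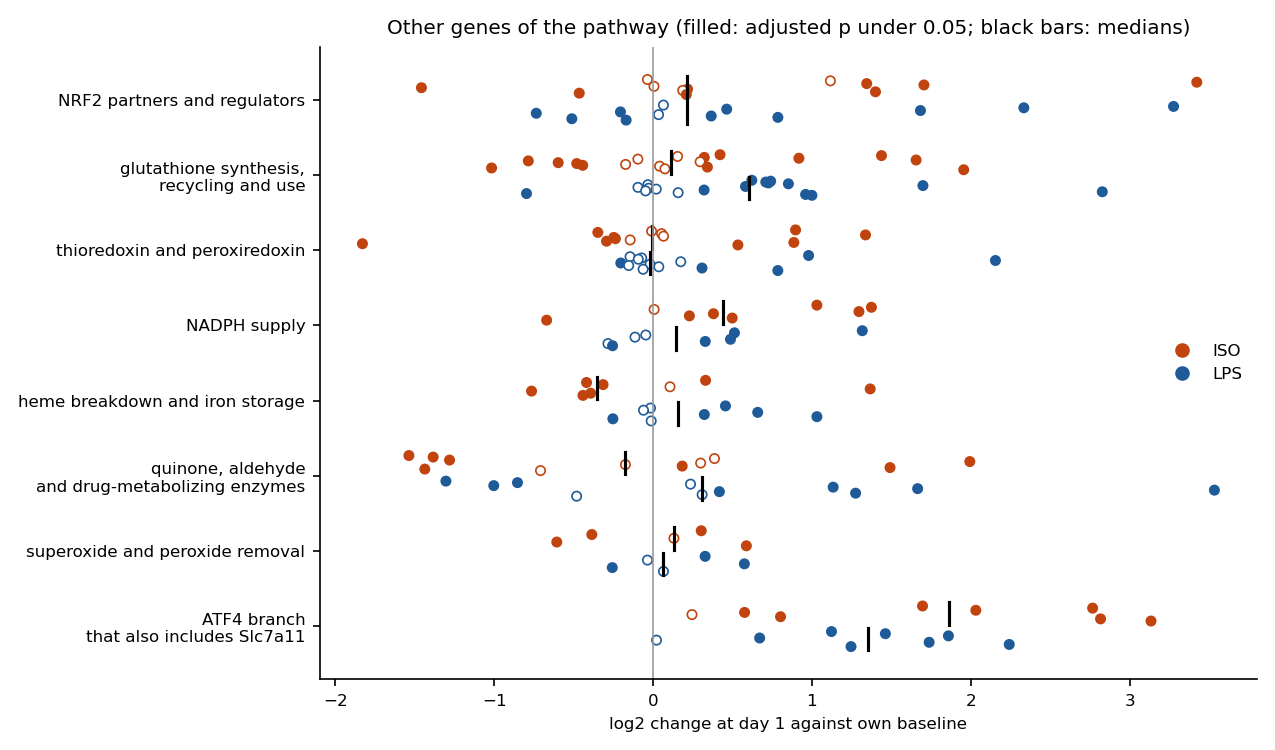
Log2 change on day 1 of every tested gene in the 8 lists against its own baseline, with ISO above LPS in each row (filled points, adjusted p under 0.05; black bars, list medians). The ATF4 branch lies to the right of 0 for each agent, with medians of 1.86 and 1.35, and the other lists spread to both sides.

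The genes whose log2 CPM ran most like each member over the 23 libraries were named by a rule that took no account of function. The measure is Pearson's r across libraries that share groups and depth, given as a description. For Srxn1 they were Pgd (0.978) and Atxn10 (0.977), for Txnrd1 Gsr (0.985) and Esd (0.984), and for Gclc Gsr (0.971) and Txnrd1 (0.969). For Gclm they were Nup98 (0.985) and Pdcd6ip (0.984), for Hmox1 Gars (0.986) and Sbno2 (0.984), and for Nfe2l2 Tiparp (0.982) and Luc7l (0.977). For Slc7a11 they were Psma5 (0.985) and Nubp1 (0.980), for Nqo1 Psmc5 (0.930) and Asb8 (0.929), for Osgin1 Nqo1 (0.787) and Prdx1 (0.755), and for Keap1 Mgst1 (0.943) and Psma7 (0.935). Among the members themselves, r was highest between Gclc and Txnrd1 at 0.969 and lowest between Srxn1 and Keap1 at 0.34.

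Markers of other cell types moved on day 1 along with the members. Summed TPM of 5 neutrophil markers was 9.05 to 21.8 on ISO day 1 against 0.289 to 0.629 at the ISO baseline, with 4 of 5 called higher and Cxcr2 at 0 at the ISO baseline. It was 15.8 to 25.98 on LPS day 1 against 0.597 to 0.949 at the LPS baseline, with 5 of 5 called higher. The 6 general macrophage markers summed to 61.1 to 68.1 TPM on ISO day 1 against 72.6 to 92.2 TPM at the ISO baseline, and to 51.8 to 67.2 TPM on LPS day 1 against 79.6 to 105 TPM at the LPS baseline, with none at 0 in any group. Of these 6, 1 was called higher and 3 lower on ISO day 1, and 1 was called higher and 2 lower on LPS day 1. The 6 cardiomyocyte markers summed to 30038 to 34959 TPM on ISO day 1 against 41052 to 42624 TPM at the ISO baseline, with 5 of 6 called lower, and to 27035 to 29355 TPM on LPS day 1 against 40784 to 41354 TPM at the LPS baseline, again with 5 of 6 called lower. The 5 endothelial markers summed to 1681 to 2014 TPM on ISO day 1 against 571 to 721 TPM at the ISO baseline, and to 1070 to 1447 TPM on LPS day 1 against 574 to 705 TPM at the LPS baseline. Of these 5, 3 were called higher and 1 lower on ISO day 1, with a median log2 change of 0.26, and 2 were called higher and 1 lower on LPS day 1, with a median of 0.18, so that the sums do not describe every marker. The part of these cell types in the levels of the 10 genes was not tested.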

How the data were processed

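Gene-level files of 23 heart libraries were used, with groups taken from the labels. Per the file headers, the authors deposited for each library estimated counts of reads per gene, TPM and the effective length in bases. Per the submitters' processing notes, the tools included DRAGEN, bcl2fastq, limma and edgeR, with the mm10 build. Tool versions, annotation and strandedness were not given in the sources used here, so overlapping and antisense genes cannot be separated. Of 55487 identifiers, 55227 matched GENCODE M21 (GRCm38). Of all values, 9.50% were not whole, and counts were rounded. Counts were tested with edgeR 4.0.16 in R 4.3.3 (TMM, filterByExpr with a minimum count of 10, quasi-likelihood fit of 6 group means, two-sided, Benjamini-Hochberg, called under 0.05). All groups share an estimate of the spread, with a common biological coefficient of variation of 11.0%. The design text counts mice per group, and the p-values measure the spread between hearts and libraries together.

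Every pair of libraries within a group differed by more than sampling noise, with chi-square of 4.00 to 44.6 per degree of freedom, and none were merged. Alternatives were library totals, RLE scaling, DESeq2 1.42.0, limma-voom (limma 3.58.1), a robust fit, other count filters, groups fitted alone, a replicate block, log2(TPM + 0.1) and log2(TPM + 1), effective-length offsets, no mitochondrial genes, pooled baselines and leaving out libraries. The procedure was tested on simulated data in which few genes were changed, in the ISO day 1 group only. Such data do not check the scaling where most genes are called, as on day 1 here. The members and lists were chosen with earlier results of these data known. Besides the members, the text names up to 3 genes a list and comparison with the smallest adjusted p, and the 2 genes most like each member with a mean of at least 5 CPM. Motifs were searched in RefSeq promoter windows. Intervals were computed in scipy 1.17.1 under Python 3.11.15. Nnt reads are split over overlapping identifiers and its value is uncertain.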

Additional observations from a re-analysis of the deposited data

Results flagged for a closer look

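The change on day 1 differed between the agents, each at a single dose, by a test of the difference for 5 of the 10 genes. Of all genes, 37.6% passed that test. The ISO change minus the LPS change was 2.88 for Srxn1, 1.38 for Txnrd1, 0.89 for Gclm and 0.50 for Gclc, and -0.51 for Keap1, all on the log2 scale, and the call of Gclc was lost in 16 of 39 alternatives.

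Single hearts lay far from the others of their group in 4 of 50 gene and group combinations with 4 hearts, and chance marks about 1 in 20 by this measure. Gclc was high in LPS day 1 replicate 1, at 22.7 CPM. Hmox1 was high in LPS day 7 replicate 3, at 9.96 CPM. Nqo1 was high in ISO day 7 replicate 1, at 35.6 CPM, and Keap1 was low in ISO day 7 replicate 3, at 66.5 CPM.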

How the results depend on the processing

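Of 3476 values of the members under alternatives, 3406 kept their direction and their side of the threshold, as did 4860 of 4944 values of the listed pathway genes. The count of members called moved for LPS day 7 against baseline, 0 as reported, to 1 with DESeq2, no count filter, the replicate block or pooled baselines, and to 3 when the groups were fitted alone. For the untreated arms, 0 as reported, it moved to 1 with DESeq2, no count filter or the replicate block, and for the ISO change minus the LPS change on day 7, 0 as reported, to 2 with pooled baselines. Where 1 library was left out, the count was 8 to 9 for ISO day 1, 9 to 10 for LPS day 1, 8 to 9 for ISO day 7 against day 1, 9 to 10 for LPS day 7 against day 1, 4 to 5 for the difference between agents on day 1, and 0 to 1 for LPS day 7 and for the untreated arms. The cause of these moves was not tested. Nfe2l1 on LPS day 7 turned from -0.19 to 0.00058 with log2(TPM + 0.1) and 0.00057 with log2(TPM + 1). Slc7a11 kept its day 1 calls at 2.13 (ISO) and 2.20 (LPS) on the log2(TPM + 0.1) scale, where the pseudocount exceeds its baseline level. Keap1 passed on ISO day 1 with pooled baselines (0.14, adjusted p = 0.0278), as did Osgin1 (0.71, adjusted p = 0.0383), and the Gclc difference between agents was then 0.77.

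Replicate numbers did not pair the samples, since deviations of same-numbered hearts correlated at -0.118 to 0.082. The replicate block changed the call of no member but Nqo1, on LPS day 7 (-0.32, adjusted p = 0.0468) and between the untreated arms (0.41, adjusted p = 0.0365). Counts over all genes moved by over 1.5 times in the comparisons with few calls: for LPS day 7 against baseline from 1431 to 621 without LPS day 7 replicate 3, 774 and 761 without replicates 1 and 2 of its baseline, 2242 with pooled baselines, 2281 with log2(TPM + 1), 2511 with library totals and 2600 with groups fitted alone; for ISO day 7 from 1 to between 0 and 3; for the difference on day 7 from 72 to between 40 and 1235; and for the untreated arms from 191 to between 107 and 701. Depth limits Slc7a11 most, with 0 to 3 reads per library outside day 1.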
